A study of Mus musculus with 11 samples.

Results

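The bone morphogenetic protein (BMP) pathway was examined in mouse fetal lung mesenchymal cells through 10 genes taken by name from 24062 counted genes: the ligands Bmp2, Bmp4, Bmp5 and Bmp7, the receptors Bmpr1a and Bmpr2, the secreted antagonists Grem1 and Nog, and the target genes Id1 and Id3. The rule was a list of names by role, with no threshold on a measured value. The cells came from embryonic day 15 lungs, were enriched by rapid adhesion to plastic and were passaged 2 times. The authors obtained mutant and wild-type embryos from timed matings of heterozygous Sp3+/- mice. Which libraries came from the same litter is not given in the sources used here. The 11 RNA-seq libraries fell into 3 genotypes: 4 wild-type (Sp3+/+), 4 heterozygous (Sp3+/-) and 3 homozygous mutant (Sp3-/-). Sp3 encodes a zinc finger transcription factor that binds GC-rich promoter boxes, and the mutation was constitutive, so that every cell type of the embryo carried it. No agent was applied. Because the labels do not state that each library came from its own embryo, the p-values measure the spread between these libraries.

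BMP ligands are secreted dimers of the TGF-beta superfamily. They bring together type I receptors such as Bmpr1a and the type II receptor Bmpr2, and the type I receptors phosphorylate Smad1, Smad5 and Smad9. These enter the nucleus with Smad4 and raise target genes, among them the Id genes, whose products block basic helix-loop-helix transcription factors. Gremlin 1 and noggin bind ligands outside the cell and keep them from the receptors. In the developing lung, Bmp4 is made in distal epithelium and in mesenchyme, and BMP signalling is known for its part in branching and distal airway growth.

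Libraries held 9849111 to 59297495 reads on genes, with a median of 34968482. Sp3 itself set the Sp3-/- libraries apart, while those labelled Sp3+/+ and Sp3+/- overlapped. It stood at 6.53, 5.94, 6.75 and 6.30 log2 CPM (CPM, read counts scaled to library size) in Sp3+/+ cells, at 5.71, 5.97, 6.15 and 5.82 in Sp3+/- cells and at 4.23, 4.16 and 3.89 in Sp3-/- cells. It was lower in Sp3-/- than in Sp3+/+ cells by edgeR's quasi-likelihood test (log2 fold change -2.30, SE 0.21, adjusted p = 0.00611), and the difference of Sp3+/- from Sp3+/+ cells was -0.49 (SE 0.16, adjusted p = 1). The titles of the 11 libraries carry a suffix (2, 3 or none) whose meaning is not given. All 3 Sp3-/- titles lack it, as do 1 Sp3+/+ and 1 Sp3+/- title (replicate 1 and replicate 4), so that suffix and genotype cannot be fully told apart. For Sp3+/- replicate 4 the title has no suffix but the name of its deposited data carries suffix 2, and suffixes below are those of the titles. Lung mesenchyme markers summed to 10520 to 19840 CPM in Sp3+/+, 12630 to 20140 CPM in Sp3+/- and 5796 to 18470 CPM in Sp3-/- cells. Of 8 epithelial markers, Sftpc, Sftpb and Nkx2-1 lay below 1 CPM in every Sp3+/- and Sp3-/- library and reached 4.559, 0.1382 and 1.174 CPM in Sp3+/+ cells, whereas the keratin gene Krt18 lay at 12.28 to 27.76 CPM in Sp3+/+ and Sp3+/- cells and at 37.39 to 103.0 CPM in Sp3-/- cells, and Cdh1 at most at 0.3654 and at 2.47 to 5.869 CPM.

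The 250 bases before and 50 after the transcription start are shown for the 2 members whose Sp3-/- libraries all lay below the Sp3+/+ libraries, Id3 and Grem1, for the receptor Bmpr1a, and for Id4, a further target gene that fell in Sp3-/- cells. A lack of overlap between these genotypes, in either direction, was found for 31.6% of genes tested. Sp3 is known to bind GC boxes, and capitals mark GGGCGG on either strand, overlapping copies joined. The sequences are those of RefSeq on GRCm38.p6, written 5′ to 3′ in the direction of the gene.
Id3, chr4:136143572-136143871, plus strand: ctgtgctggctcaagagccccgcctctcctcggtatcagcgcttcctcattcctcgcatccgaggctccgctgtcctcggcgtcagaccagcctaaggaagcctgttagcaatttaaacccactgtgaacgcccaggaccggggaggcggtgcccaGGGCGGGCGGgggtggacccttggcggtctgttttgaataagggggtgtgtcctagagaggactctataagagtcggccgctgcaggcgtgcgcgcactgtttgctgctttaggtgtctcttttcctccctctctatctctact
Grem1, chr2:113758599-113758898, minus strand: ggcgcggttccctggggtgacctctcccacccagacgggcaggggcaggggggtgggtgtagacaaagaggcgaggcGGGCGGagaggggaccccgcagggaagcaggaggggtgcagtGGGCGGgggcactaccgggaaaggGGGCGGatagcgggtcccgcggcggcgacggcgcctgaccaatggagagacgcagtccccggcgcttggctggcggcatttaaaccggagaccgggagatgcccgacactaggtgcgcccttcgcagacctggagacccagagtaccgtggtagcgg
Bmpr1a, chr14:34502497-34502796, minus strand: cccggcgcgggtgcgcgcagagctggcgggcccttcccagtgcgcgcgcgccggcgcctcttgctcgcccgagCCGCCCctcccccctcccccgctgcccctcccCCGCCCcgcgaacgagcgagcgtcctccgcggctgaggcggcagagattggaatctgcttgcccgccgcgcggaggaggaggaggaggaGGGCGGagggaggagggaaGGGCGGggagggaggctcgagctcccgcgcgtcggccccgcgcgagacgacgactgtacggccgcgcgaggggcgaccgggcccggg
Id4, chr13:48260866-48261165, plus strand: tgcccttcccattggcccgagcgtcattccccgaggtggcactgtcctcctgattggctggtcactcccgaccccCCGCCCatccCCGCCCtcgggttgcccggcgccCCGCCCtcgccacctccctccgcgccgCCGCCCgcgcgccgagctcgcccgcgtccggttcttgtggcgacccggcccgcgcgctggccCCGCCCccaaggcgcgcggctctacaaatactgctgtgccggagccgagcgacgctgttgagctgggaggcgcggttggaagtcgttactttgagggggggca
GGGCGG was found 2 times in the Id3 window, 3 times in that of Grem1, 4 times in that of Bmpr1a and 5 times in that of Id4. The Bmp4 and Bmpr2 windows each held it 1 time and the Bmp5 window did not hold these letters, so that 5 of the 6 members with a sequence had it. Of 32851 mouse promoter windows of this length, 35.7% held it. The other strings counted were, on both strands: GGGGCGGGG, which contains GGGCGG and occurs in 11.4% of windows, GGCGCC (11.9%) and TATAAA (13.6%). Of the 4 windows shown, GGGGCGGGG was found in those of Bmpr1a and Id4, GGCGCC in those of Grem1, Bmpr1a and Id4, and TATAAA in none. Among further BMP pathway genes, described further on, GGGCGG occurred for 6 of the 9 that differed between Sp3-/- and Sp3+/+ cells and had a sequence, and for 25 of the 30 that did not. Those of the 9 without GGGCGG were Bmpr1b, Eng and Tll1, all lower in Sp3-/- cells. A match describes letters only. Bmp2, Bmp7, Nog and Id1 are not shown.

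**Figure D1:**
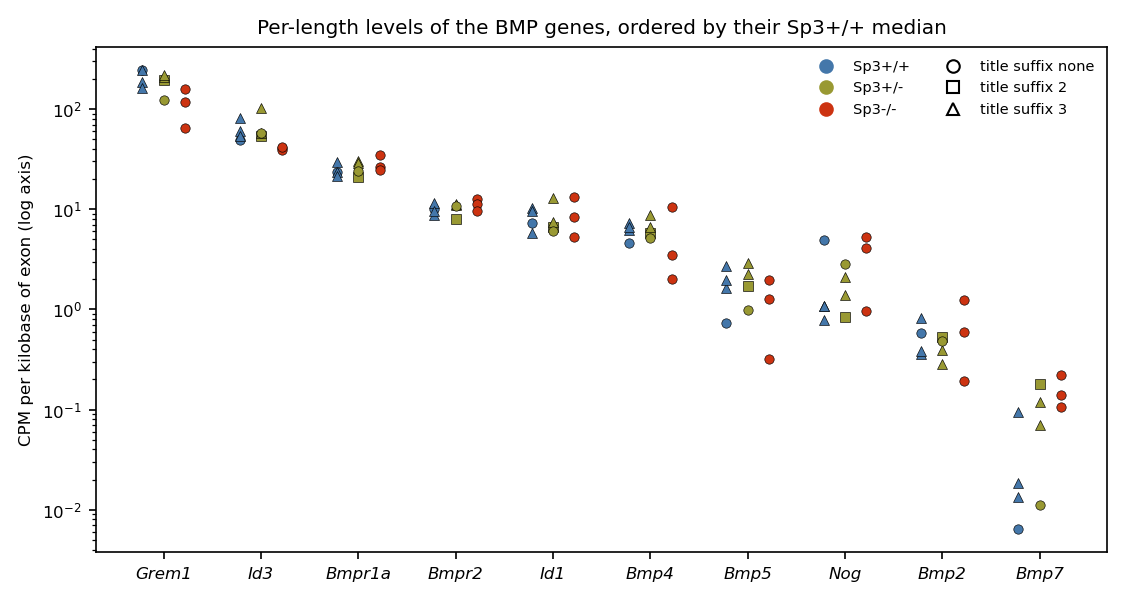
CPM per kilobase of exon (log axis) of the 10 BMP genes in each library, with genotype as colour and title suffix as marker shape, ordered by the Sp3+/+ median. The levels run from a median of 214 for Grem1 to 0.0159 for Bmp7 in Sp3+/+ cells.

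The cultures held far more transcript of the antagonist Grem1 than of any ligand on the list. Per kilobase of exon, median levels in Sp3+/+ cells were 214 CPM for Grem1, 57 for Id3, 23.5 for Bmpr1a, 9.78 for Bmpr2, 8.43 for Id1, 6.44 for Bmp4, 1.80 for Bmp5, 1.08 for Nog, 0.48 for Bmp2 and 0.0159 for Bmp7. Ranges of neighbours in this order overlapped for Bmpr2 and Id1, for Id1 and Bmp4, for Bmp5 and Nog, and for Nog and Bmp2, and did not overlap for the other neighbours. The order by median was the same in Sp3+/- cells. In Sp3-/- cells Grem1 (117), Id3 (41.2), Bmpr1a (26.4), Bmpr2 (11.2) and Id1 (8.45) kept their ranks. The Nog median (4.12) stood above that of Bmp4 (3.48), but their ranges overlapped. Within libraries, Nog was above Bmp4 in Sp3-/- replicate 2 (4.125 against 3.48). Bmp4 was above Nog in Sp3-/- replicate 1 (10.46 against 5.333) and replicate 3 (2.013 against 0.9669).

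**Figure D2:**
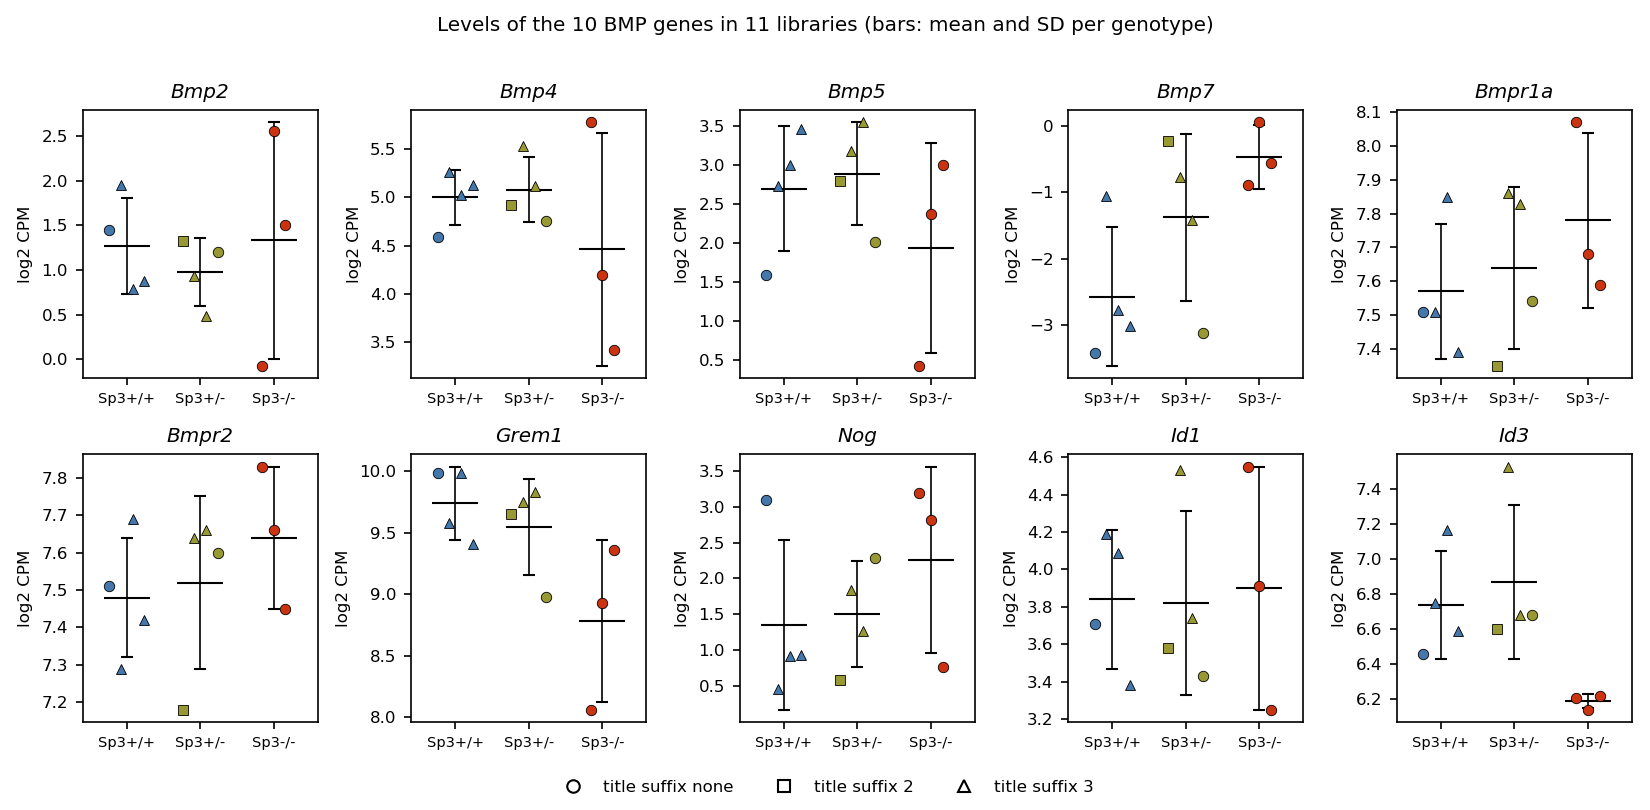
log2 CPM of each of the 10 BMP genes by genotype, 1 point per library, with marker shape for the title suffix and bars for the mean and SD. Id3 in the 3 Sp3-/- libraries (6.14 to 6.22) lies below all 8 other libraries, whereas Bmp2, Bmp4, Bmp5 and Nog are widely spread in Sp3-/- cells. Sp3-/- and Sp3+/+ libraries do not overlap, in either direction, for 31.6% of genes tested.

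The first question was whether loss of both Sp3 alleles changed BMP gene levels. Of the 10 genes, 9 passed the filter of more than 1 CPM in at least 1 library, and 0 of the 9 differed at an adjusted p below 0.05 between Sp3-/- and Sp3+/+ cells by edgeR, against 18.5% of the 14025 genes tested (8.76% higher and 9.77% lower). At an unadjusted p below 0.05 there were 2, Grem1 and Id3, both lower in Sp3-/- cells, beside 37.6% of genes tested, and DESeq2 called both, beside 30.6% of genes tested. The median log2 fold change of the 9 was 0.14, beside -0.003 over all genes tested.

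Among the listed ligands, Bmp4 was the most abundant. Its levels were 4.59, 5.26, 5.03 and 5.13 log2 CPM in Sp3+/+ cells, 4.92, 5.53, 5.12 and 4.75 in Sp3+/- cells and 5.78, 4.19 and 3.41 in Sp3-/- cells. The Sp3-/- libraries lay on both sides of all other libraries, 1 above and 2 below. The log2 fold change of Bmp4 against Sp3+/+ was -0.21 (SE 0.50, adjusted p = 0.792). Without Sp3-/- replicate 1, the high library, it was -1.15 (adjusted p = 0.0415), and so 1 library decided the call. The same held against Sp3+/- cells, at -1.24 without it (adjusted p = 0.0166). The Bmp4 gene (chr14:46383525-46390669, GRCm38.p6) overlaps the counted gene Gm15217, and since the strand setting of the counting is not given in the sources used here, their reads may not be fully told apart.

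Bmp5, a ligand related to Bmp7, stood at 1.59, 2.74, 3.00 and 3.47 log2 CPM in Sp3+/+ cells, 2.80, 3.19, 3.55 and 2.02 in Sp3+/- cells and 0.43, 2.37 and 3.01 in Sp3-/- cells. The log2 fold change was -0.60 (SE 0.64, adjusted p = 0.529), and the genotypes overlapped. Bmp2 stood at 1.45, 1.95, 0.79 and 0.88 log2 CPM in Sp3+/+ cells, 1.32, 0.93, 0.48 and 1.20 in Sp3+/- cells and -0.07, 2.55 and 1.5 in Sp3-/- cells. Its Sp3-/- libraries spanned the whole range of the other genotypes (log2 fold change 0.39, SE 0.61, adjusted p = 0.673). Bmp4 and Bmp2 did not follow the same order within Sp3-/- cells: replicate 1 was highest for Bmp4 and lowest for Bmp2.

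Bmp7 was close to the detection limit and did not pass the filter. It had 1, 6, 2 and 2 reads in the Sp3+/+ libraries, 11, 31, 14 and 1 in the Sp3+/- libraries and 17, 44 and 6 in the Sp3-/- libraries. With every counted gene kept, the log2 fold change of Sp3-/- against Sp3+/+ was 2.54 (SE 0.75, adjusted p = 0.0632), and it rests on Sp3+/+ libraries with at most 6 reads. Mesothelial markers, whose sum was 696.4 to 1665 CPM in Sp3+/+ cells and 2079 to 5614 CPM in Sp3-/- cells, and epithelial markers (14.5 to 34.0 CPM against 47.6 to 150.7 CPM) were also higher in Sp3-/- libraries. Of these lists, 3 of 6 mesothelial and 3 of 6 epithelial markers tested were called higher in Sp3-/- cells, beside 8.76% of all genes tested. In the epithelial sum the keratin genes Krt18 and Krt8 reached 103.0 and 39.97 CPM in Sp3-/- cells, and no other marker passed 5.869 CPM there. Sftpc (log2 fold change -4.72) and Nkx2-1 (-1.85) went the other way without a call. The part of these markers in the Bmp7 reads was not tested. In bulk RNA more cells of a type and more RNA per cell cannot be told apart.

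The receptors had the smallest ranges of the 10 genes over the 11 libraries. Bmpr1a, the type I receptor, stood at 7.51, 7.51, 7.85 and 7.39 log2 CPM in Sp3+/+ cells, 7.35, 7.86, 7.83 and 7.54 in Sp3+/- cells and 8.07, 7.68 and 7.59 in Sp3-/- cells. Its log2 fold change in Sp3-/- against Sp3+/+ cells was 0.22 (SE 0.16, adjusted p = 0.335). Bmpr2, the type II receptor, stood at 7.51, 7.29, 7.69 and 7.42 in Sp3+/+ cells, 7.18, 7.64, 7.66 and 7.60 in Sp3+/- cells and 7.83, 7.66 and 7.45 in Sp3-/- cells (log2 fold change 0.17, SE 0.13, adjusted p = 0.365). Both receptors overlapped between the genotypes.

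Of the antagonists, Grem1 stood at 9.99, 9.58, 9.99 and 9.41 log2 CPM in Sp3+/+ cells, 9.65, 9.75, 9.83 and 8.98 in Sp3+/- cells and 8.06, 8.93 and 9.36 in Sp3-/- cells. All 3 Sp3-/- libraries lay below all 4 Sp3+/+ libraries, and 31.6% of genes tested had no overlap in either direction. The difference was -0.88 on the log2 scale (SE 0.31), 1.84-fold lower, and did not pass the adjusted threshold in edgeR (adjusted p = 0.0851). DESeq2 gave -0.87 with an adjusted p of 0.0244, and the gap between Sp3-/- replicate 3 (9.36) and the lowest Sp3+/+ library (9.41) was small. Sp3+/- replicate 4 (8.98) also lay within the Sp3-/- range.

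Nog, which encodes noggin, stood at 3.09, 0.46, 0.92 and 0.93 log2 CPM in Sp3+/+ cells, 0.58, 1.84, 1.27 and 2.29 in Sp3+/- cells and 3.19, 2.82 and 0.77 in Sp3-/- cells. The 4 highest libraries were Sp3-/- replicates 1 and 2, Sp3+/+ replicate 1 and Sp3+/- replicate 4, whose titles have no suffix, with the doubt given above for the last. The log2 fold change was 0.83 (SE 0.77, adjusted p = 0.466). Without Sp3+/+ replicate 1 it was 1.85 (adjusted p = 0.0489). Macrophage markers were also high in these 4 libraries, at 2835 CPM in Sp3+/+ replicate 1, 2709 in Sp3+/- replicate 4, and 2647 and 9760 in Sp3-/- replicates 1 and 2, but Sp3-/- replicate 3 had 9631 CPM with little Nog. The other 6 libraries had 314.9 to 777.2 CPM. Of 7 macrophage markers tested, 2 were called higher in Sp3-/- than in Sp3+/+ cells, beside 8.76% of all genes tested. All 7 had log2 fold changes above 0, with a median of 2.37, beside -0.003 over all genes tested. Against Sp3+/- cells all 7 markers were called higher, beside 13% of all genes tested. Their part in the Nog levels was not tested.

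Of the target genes, Id3 stood at 6.46, 6.75, 7.17 and 6.59 log2 CPM in Sp3+/+ cells, 6.60, 7.53, 6.68 and 6.68 in Sp3+/- cells and 6.21, 6.14 and 6.22 in Sp3-/- cells. The 3 Sp3-/- libraries lay close together and below all other libraries. Sp3-/- and Sp3+/+ libraries did not overlap, in either direction, for 31.6% of genes tested. The difference from Sp3+/+ was -0.58 on the log2 scale (SE 0.17), 1.49-fold lower, and missed the adjusted threshold in edgeR (adjusted p = 0.0542), while DESeq2 gave an adjusted p of 0.0172. With the suffix as a covariate the difference was -0.24 (SE 0.26, adjusted p = 0.564) by title and -0.27 (adjusted p = 0.671) by the name of the deposited data, and among libraries without a suffix, where Sp3+/+ has 1 library, it was -0.28 (adjusted p = 0.574). Leaving out Sp3+/+ replicate 1, whose title has no suffix, gave -0.67 (adjusted p = 0.0217). Id1 stood at 3.71, 4.19, 4.09 and 3.38 in Sp3+/+ cells, 3.58, 4.53, 3.74 and 3.43 in Sp3+/- cells and 4.55, 3.91 and 3.25 in Sp3-/- cells. The genotypes overlapped throughout (log2 fold change 0.14, SE 0.32, adjusted p = 0.775). Within Sp3-/- cells, Id1 and Bmp4 were both highest in replicate 1 and lowest in replicate 3, an order also seen there in the sums of the lung mesenchyme (18470, 11960 and 5796 CPM), smooth muscle (4978, 4197 and 4099), mesothelial (5614, 2912 and 2079) and epithelial (150.7, 77.8 and 47.6) markers. Any link was not tested.

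**Figure D3:**
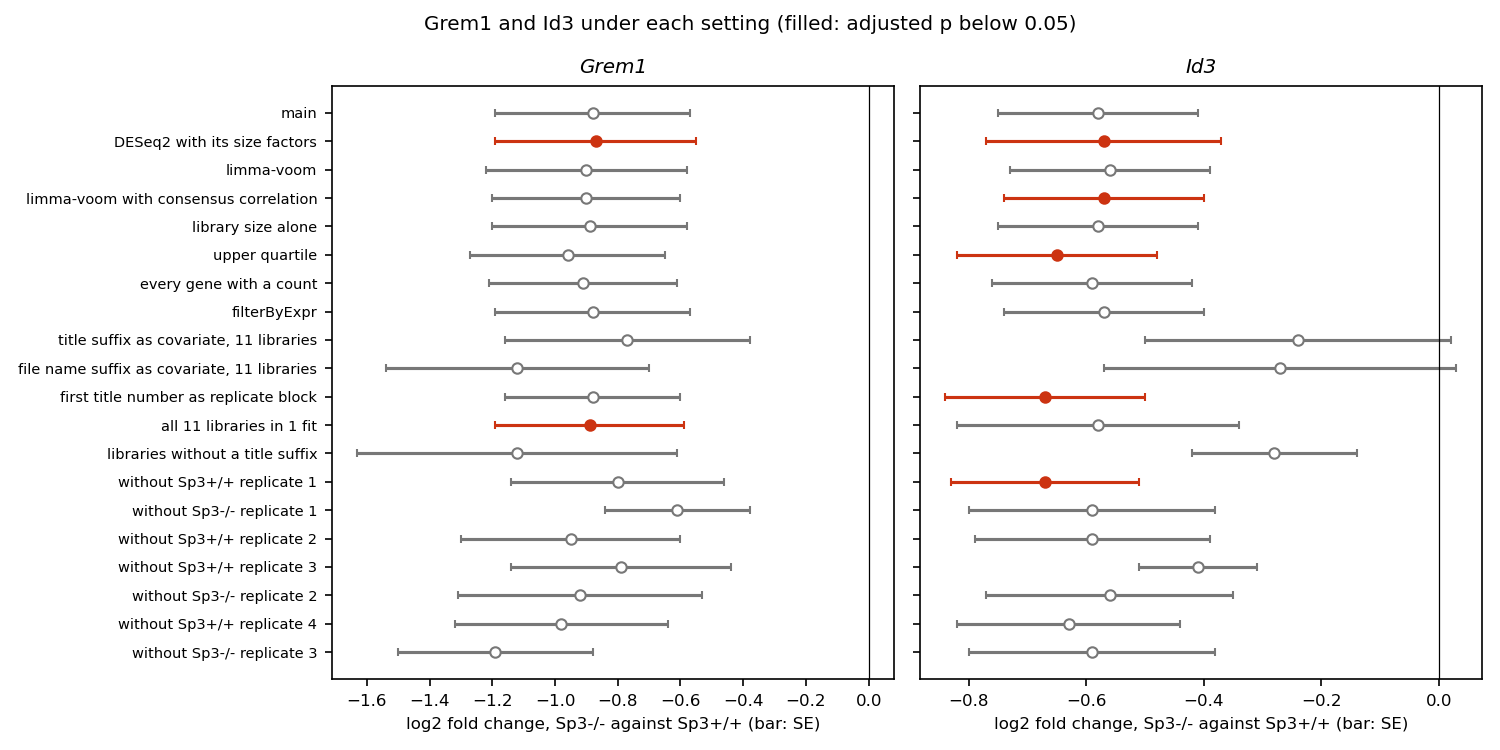
log2 fold change (points, with SE bars) of Grem1 and Id3 in Sp3-/- against Sp3+/+ cells under the reported fit, 12 other settings and with each of the 7 libraries left out, with filled points where the adjusted p was below 0.05. Every value lies below 0, from -1.19 to -0.61 for Grem1 and from -0.67 to -0.24 for Id3, and most points are open.

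Whether loss of 1 allele was enough to change these genes was asked by comparing Sp3+/- with Sp3+/+ cells. By edgeR 0 of the 9 genes tested were called, as were 0 (0%) of the 14130 genes tested, and 246 genes but none of the 9 had an unadjusted p below 0.05. DESeq2 and limma-voom also called 0. All 9 log2 fold changes lay between -0.34 and 0.16: Bmp2 -0.34 (SE 0.50), Grem1 -0.18 (SE 0.27), Nog -0.16 (SE 0.67), Id1 0.02 (SE 0.32), Bmpr2 0.05 (SE 0.13), Bmpr1a 0.08 (SE 0.15), Bmp4 0.09 (SE 0.41), Bmp5 0.16 (SE 0.54) and Id3 0.16 (SE 0.22). Libraries of the genotypes overlapped for all 9, whereas they did not for 1.41% of genes tested.

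Against Sp3+/- cells, 1 of 9 genes was called lower in Sp3-/- cells, Id3, beside 25.5% of the 14130 genes tested (13% higher and 12.5% lower). Its libraries did not overlap, as for 34.2% of genes tested, and it was 1.67-fold lower (log2 fold change -0.74, SE 0.24, adjusted p = 0.0445). Without Sp3+/- replicate 2, the highest library at 7.53 log2 CPM, it was -0.47 (adjusted p = 0.0742). The call held under 6 of 12 other settings and 2 of 7 fits with a library left out, those without Sp3+/- replicate 1 or 4, and with the suffix as a covariate the value was -0.53 (adjusted p = 0.234) by title and -0.58 (adjusted p = 0.723) by the name of the deposited data. Grem1 was lower by 0.71 on the log2 scale without passing the test (SE 0.30, adjusted p = 0.105), and its genotypes overlapped here. With a library left out it ranged from -0.43 without Sp3-/- replicate 1 (adjusted p = 0.253) to -1.03 without Sp3-/- replicate 3 (adjusted p = 0.0495). Over the 12 other settings the Grem1 value ran from -1.22 to -0.12 and was not called in any. Bmp2 (0.71, SE 0.53), Bmp4 (-0.30, SE 0.45), Bmp5 (-0.77, SE 0.60) and Nog (0.98, SE 0.71) had standard errors close to the size of their differences, and Bmpr1a (0.14, SE 0.17), Bmpr2 (0.12, SE 0.14) and Id1 (0.12, SE 0.34) gave smaller values. Sp3-/- libraries enter both this comparison and that with Sp3+/+, so the values are not independent.

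The other BMP pathway genes were taken from a list of 58, of which 48 passed the filter in the comparison of Sp3-/- with Sp3+/+ cells. Of these, 10 were called, 1 higher and 9 lower, with a median log2 fold change of -0.20 over the 48. The share called was close to the 18.5% over all genes tested, of which 8.76% were higher and 9.77% lower. With 1 library left out, 3 (without Sp3-/- replicate 2) to 17 (without Sp3+/+ replicate 1) were called, and 0 among the libraries without a title suffix. With the suffix taken from the names of the deposited data as a covariate 4 were called. The number called among all genes tested fell or rose in the same fits, as given below under how the results depend on the processing. Against Sp3+/- cells 15 of 49 were called, 2 higher and 13 lower, beside 25.5% of all genes tested (13% higher and 12.5% lower). In Sp3+/- against Sp3+/+ cells 0 of 49 were called, as were 0 of all genes tested.

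**Figure D4:**
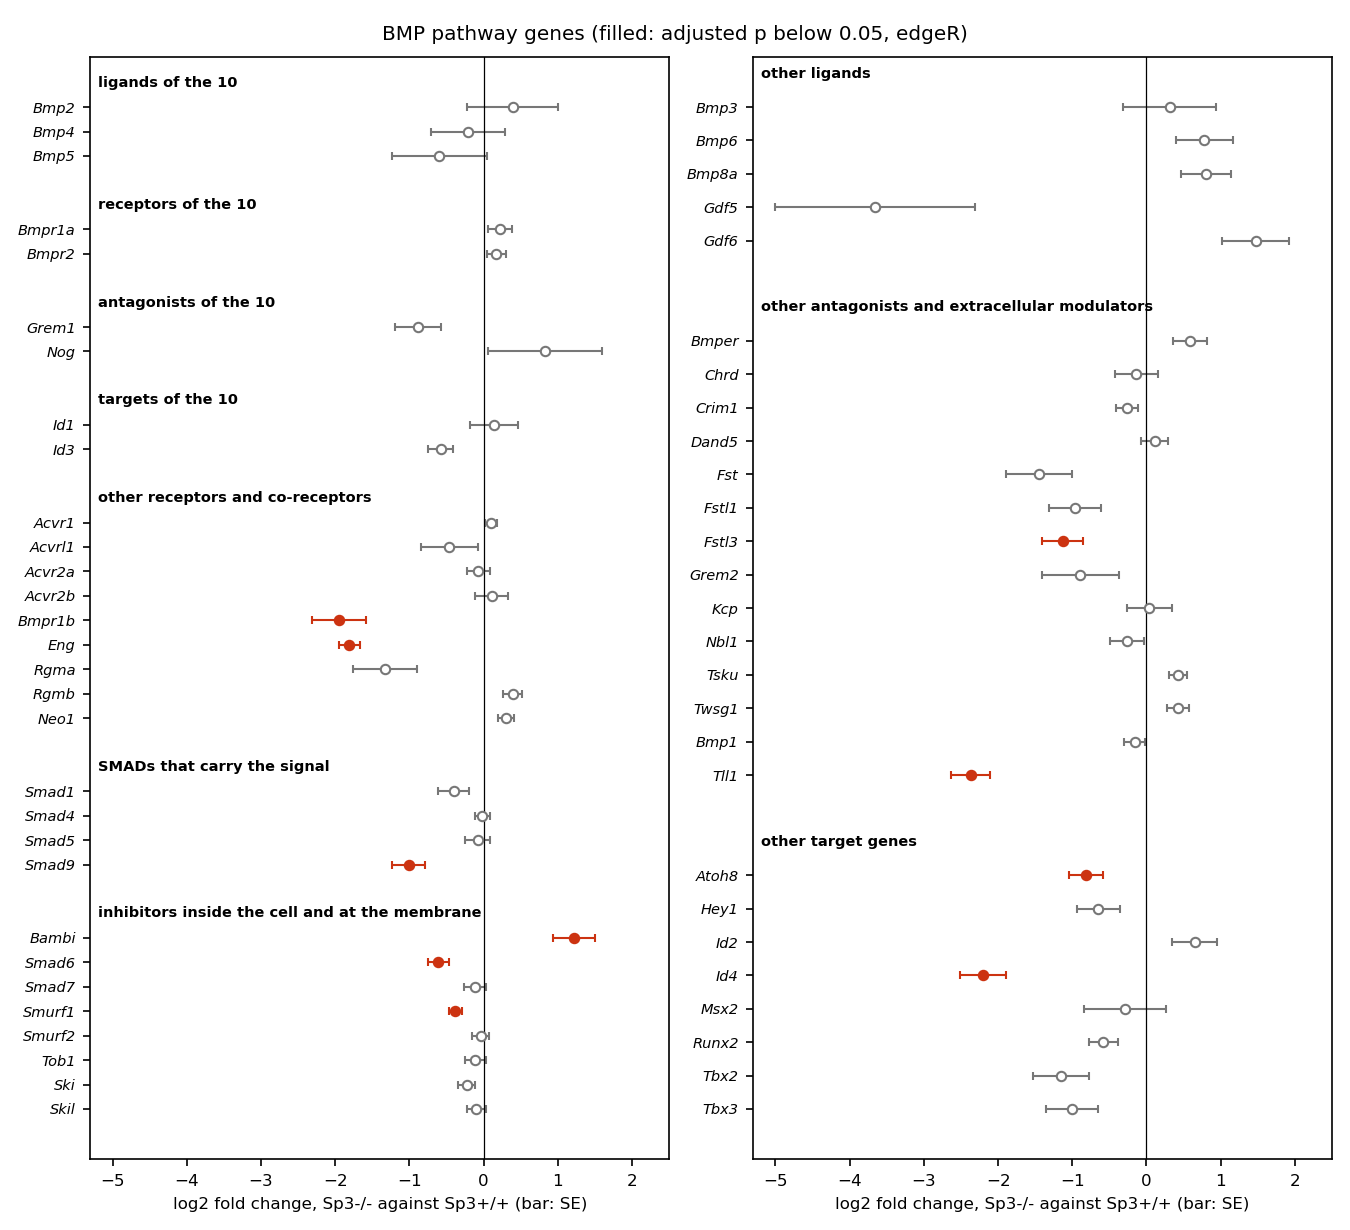
log2 fold changes with SE of the 9 tested genes of the 10 and of the 48 further pathway genes in Sp3-/- against Sp3+/+ cells, grouped by role, with filled points at an adjusted p below 0.05. The 10 filled points are 9 below 0 and Bambi above 0.

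Of 9 other receptors and co-receptors, 2 fell and 7 were not called. Endoglin (Eng), a co-receptor known from endothelium, stood at 6.51, 6.21, 6.12 and 6.20 log2 CPM in Sp3+/+ cells and at 4.38, 4.31 and 4.66 in Sp3-/- cells, with Sp3+/- cells between 5.69 and 6.13. It fell by 1.81 on the log2 scale (SE 0.14, adjusted p = 0.00611). Among 8 endothelial markers, Cldn5 was at 0.0556 CPM or below in every library and Pecam1 at 7.701 or below, Kdr stood at 17.49 to 64.62 CPM over all libraries, and Esam at 2.22 to 6.286 CPM in Sp3+/+ and 9.595 to 21.92 CPM in Sp3-/- cells. The 8 markers summed to 29.5 to 79.1 CPM in Sp3+/+ and 55.5 to 64.9 CPM in Sp3-/- cells, and their part in the Eng levels was not tested. Bmpr1b, a second type I receptor, stood at 4.79, 5.05, 5.86 and 5.77 in Sp3+/+ cells and at 3.01, 3.38 and 3.99 in Sp3-/- cells, and fell by 1.95 (SE 0.36, adjusted p = 0.0166).

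Among the 4 SMADs that carry the signal, Smad9 fell by 1.01 on the log2 scale (SE 0.22, adjusted p = 0.0235), from 3.74 to 4.52 log2 CPM in Sp3+/+ cells to 3.04 to 3.33 in Sp3-/- cells, and the other 3 were not called. Of 8 inhibitors inside the cell and at the membrane, 2 fell and 1 rose. Smad6, an inhibitory SMAD that BMP signalling itself induces, fell by 0.61 (SE 0.14, adjusted p = 0.0291), and Smurf1, a ubiquitin ligase that acts on SMADs, fell by 0.38 (SE 0.09, adjusted p = 0.0327). Bambi, a pseudoreceptor, rose by 1.22 (SE 0.28, adjusted p = 0.0277), from 2.81 to 3.45 log2 CPM in Sp3+/+ cells to 3.57 to 4.61 in Sp3-/- cells. The calls of these 4 genes held with a library left out in 3 of 7 fits for Smad9, 2 for Bambi, 2 for Smad6 and 1 for Smurf1.

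Of 14 other antagonists and extracellular modulators tested, 2 fell. Tll1, a protease that releases ligands by cutting chordin, stood at 7.41, 7.91, 7.95 and 8.03 log2 CPM in Sp3+/+ cells and at 5.08, 5.92 and 5.23 in Sp3-/- cells, and fell by 2.37 (SE 0.26, adjusted p = 0.00727). Fstl3, a follistatin-like protein that binds activins and some BMPs, fell by 1.13 (SE 0.28, adjusted p = 0.033). Of 8 other target genes tested, Id4 stood at 2.66, 3.01, 3.75 and 3.48 in Sp3+/+ cells and at 1.01, 1.21 and 1.08 in Sp3-/- cells, and fell by 2.21 (SE 0.31, adjusted p = 0.00981). Atoh8 fell by 0.81 (SE 0.23, adjusted p = 0.0452), a call that was lost whenever 1 library was left out. The calls of Eng, Tll1 and Id4 held in all 7 of those fits, that of Bmpr1b in 6 and that of Fstl3 in 2. Like Bmp4, Eng (Fpgs and Mir1954), Id4 (A330033J07Rik), Fstl3 (Prss57) and Smurf1 (Mir7039) overlap other counted genes, as does Sp3 itself (Sp3os). The limit given for Bmp4 holds for them too.

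None of the 5 other ligands tested was called. Gdf6, the most abundant of them, stood at 6.51, 4.95, 4.90 and 5.53 log2 CPM in Sp3+/+ cells, 5.22, 6.13, 5.45 and 6.44 in Sp3+/- cells and 7.35, 7.41 and 6.26 in Sp3-/- cells. Sp3+/+ replicate 1 (6.51) and Sp3+/- replicate 4 (6.44) lay within the Sp3-/- range. The titles of both, like those of the Sp3-/- libraries, have no suffix, with the doubt given above for Sp3+/- replicate 4. All libraries with a title suffix stood at 6.13 or below, so that suffix and genotype cannot be told apart here. The log2 fold change of Gdf6 in Sp3-/- against Sp3+/+ cells was 1.47 (SE 0.45, adjusted p = 0.0591). Per kilobase of exon, the Gdf6 median was above that of Bmp4 in each genotype. It was 10.8 against 6.44 CPM in Sp3+/+, 15.9 against 6.2 in Sp3+/- and 45.7 against 3.48 in Sp3-/- cells.

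**Figure D5:**
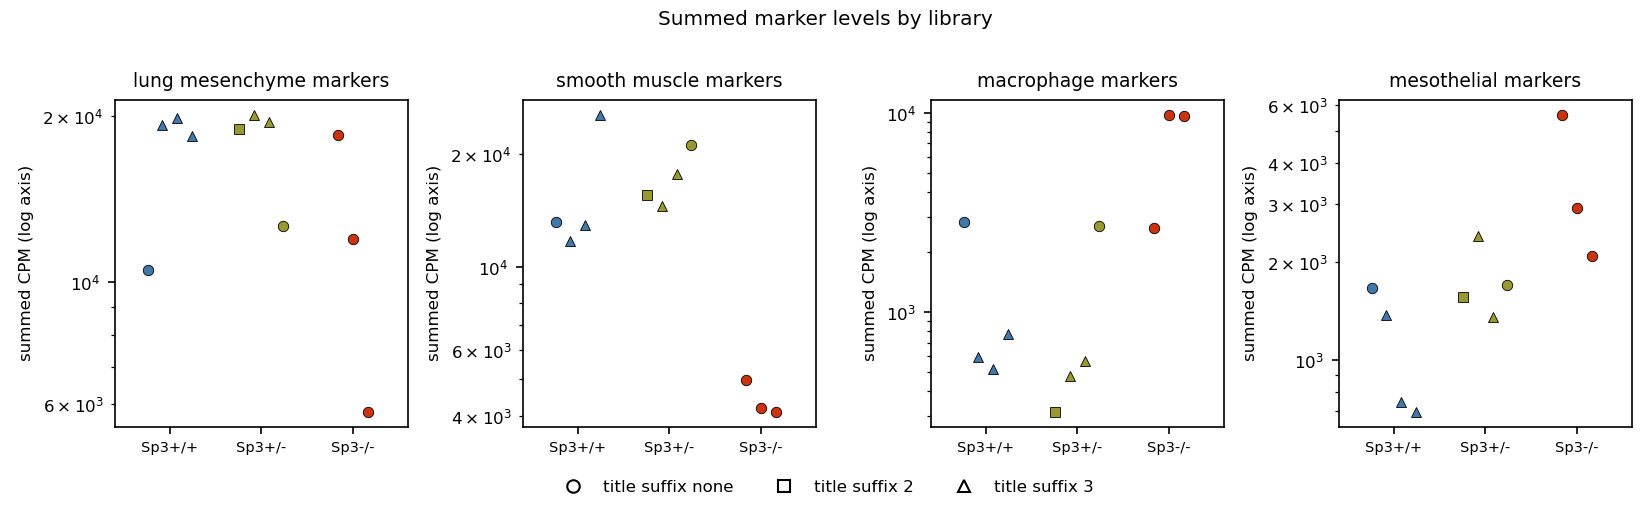
Summed CPM (log axis) of 4 marker lists in each library by genotype, with marker shape for the title suffix. Smooth muscle markers are lower in the 3 Sp3-/- libraries (4099 to 4978 CPM) than in the others, and macrophage markers are higher in the 5 libraries whose titles have no suffix (2647 to 9760 CPM) than in the other 6.

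Beside the pathway genes that fell, smooth muscle markers summed to 11690 to 25390 CPM in Sp3+/+ cells, 14540 to 21040 CPM in Sp3+/- cells and 4099 to 4978 CPM in Sp3-/- cells, and 5 of 6 were lower in Sp3-/- than in Sp3+/+ cells. Of 10 lung mesenchyme markers, 3 were lower and 1 higher. Of 7 endothelial markers tested, 1 was higher, and of 10 cell cycle genes 0 were called by edgeR in that comparison. Only 1 of the cell cycle genes had a log2 fold change above 0, and their median was -0.97, beside -0.003 over all genes tested. The part of these shifts in the BMP pathway genes was not tested.

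The genes most like each member across the 11 libraries were found by the root mean square difference of centred log2 CPM, among 11204 genes, for members whose range was 1 or more. They were Adamts1 (0.20) and Serpine2 (0.22) for Grem1, Ano3 (0.21) and Sc5d (0.21) for Id3, Nckap5 (0.21) and Nfia (0.25) for Bmp4, and Casp12 (0.18) and Gja1 (0.19) for Id1. For the less abundant members they were P2ry14 (0.37) and Klhl38 (0.38) for Bmp5, Arhgap6 (0.40) and Rab3il1 (0.42) for Bmp2, and Gm20744 (0.47) and Cntn2 (0.49) for Nog. All genes share the differences in depth and title suffix between the libraries, so this is a description of likeness. Bmpr1a and Bmpr2, with ranges of 0.73 and 0.65, had none named.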

How the data were processed

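The labels describe RNA-seq of 11 mouse libraries (TruSeq, 50 bp single-end reads). The authors checked reads with FastQC 0.10.1, aligned them to mm10 with STAR 2.4.5a and deposited raw counts per gene from htseq-count. The annotation version and strand setting are not given in the sources used here. The 5 tally lines per file, which name no gene, were left out and held 38.4% to 40.9% of tallied reads.

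Genotypes came from the labels and replicate numbers only name libraries. Genes with more than 1 CPM in at least 1 library were tested with edgeR 4.0.16 (TMM, robust quasi-likelihood test, Benjamini-Hochberg over all genes tested, adjusted p below 0.05 a call). The comparison of Sp3-/- with Sp3+/+ used its 7 libraries. The other comparisons used all 11. Levels are log2 CPM with a prior count of 2. Lengths are the exon unions of GENCODE vM39. Alternatives were DESeq2 1.42.0, limma 3.58.1 (voom, with and without a consensus correlation), library size and upper quartile scaling, other filters, title or data name suffix or first title number as covariate, other library subsets and each library left out. Scripts were tested on simulated counts. Lists of pathway and marker genes, the 10 genes and the rule for named genes (the 10, further pathway genes called in Sp3-/- against Sp3+/+ cells, the most abundant gene of a list with none called, and the 2 genes most like each of the 10) were chosen with earlier results of these data known. Individual markers, the suffix of the data name as covariate and library subsets by suffix for the Sp3+/- comparisons were chosen after the data were seen. Promoters matched 6 of the 10 genes and 39 of 58 further genes by symbol. No 2 libraries of a genotype agreed within sampling noise (lowest chi-square per degree of freedom 15.8).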

Additional observations from a re-analysis of the deposited data

Results flagged for a closer look

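In 42 groups of 4 libraries, 2 held a library far from the other 3 by Dixon's criterion, which chance gives in about 1 in 20 groups. Id3 in Sp3+/- replicate 2 was at 7.53 log2 CPM, with the gap to the next library taking up 0.914 of the group's range. Bmpr2 in Sp3+/- replicate 1 was at 7.18 log2 CPM, with a gap of 0.875 of the range.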

How the results depend on the processing

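In Sp3-/- against Sp3+/+ cells, 2599 genes were called (1229 higher, 1370 lower), and upper quartile scaling gave 983 higher and 1671 lower. DESeq2 called 4297, the suffix as covariate 1329 by title and 163 by the name of the deposited data (1 Sp3+/- library differs, an alternative chosen after seeing the data), the first title number as a replicate block 4031, all 11 libraries in 1 fit 3977, and the libraries without a suffix 0. Of the 10 BMP genes, 0 were called, against 2 by DESeq2 and 1 each with the consensus correlation (Id3), upper quartile (Id3), the replicate block (Id3) and all 11 libraries (Grem1). Of the further pathway genes, 10 were called, against 23 by DESeq2, 19 with the replicate block, 19 with all 11 libraries, 4 with the suffix of the data name and 0 without a suffix. With 1 library left out, counts ran from 282 (without Sp3-/- replicate 2) to 4179 (without Sp3+/+ replicate 1) for all genes, 0 to 2 for the 10 BMP genes and 3 to 17 for the pathway genes, with those libraries at the ends again.

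In Sp3-/- against Sp3+/- cells, 3607 genes were called (1838 higher, 1769 lower; 1436 and 2171 by upper quartile), against 763 with the suffix covariate, 0 with that of the data name and 0 without a suffix, the latter chosen after seeing the data. The call of Id3 was lost (0 of the BMP genes called) with every counted gene kept, both suffix covariates, the replicate block, the libraries of the genotypes compared alone and the libraries without a suffix. Pathway genes went from 15 to 23 (DESeq2), 5 (suffix covariate), 0 (suffix of the data name) and 0 (without a suffix). With 1 library left out, the ranges were 1490 to 3706, 0 to 1 and, for the pathway genes, 6 (without Sp3-/- replicate 2) to 19 (without Sp3+/- replicate 4).

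Directions turned for uncalled values of Bmp4, Bmp5 and Nog. In Sp3-/- against Sp3+/+ cells, the suffix covariate gave 0.25, 0.58 and -0.02, and libraries without a suffix gave 0.22, 0.66 and -0.49. The suffix of the data name gave 0.24, 0.64 and -0.48. Against Sp3+/- cells the suffix covariate gave 0.06, 0.26 and -0.34, and libraries without a suffix gave 0.05 and 0.22 for Bmp4 and Bmp5. The suffix of the data name gave 0.04, 0.37 and -1.29, turned Bmpr2 to -0.02, and left Sp3 at -2.11 (adjusted p = 0.133). In Sp3+/- against Sp3+/+ cells, Nog was 0.07 by voom with and without the consensus correlation, 0.32 with the suffix covariate, 0.26 with the replicate block and 0.82 among suffix 3 libraries and 0.81 with the suffix of the data name, Bmp4 was -0.16 and Id1 -0.20 with the block, and Grem1 was 0.11 with the suffix of the data name and 0.12 among suffix 3 libraries, a subset chosen after seeing the data. The causes were not tested. With 1 library left out, values that changed sign ran, in Sp3-/- against Sp3+/+ cells, from -0.50 to 0.83 for Bmp2, -1.15 to 0.17 for Bmp4 and -0.24 to 0.40 for Id1. In Sp3+/- against Sp3+/+ cells they ran from -0.08 to 0.20 for Bmp4, -0.09 to 0.45 for Bmp5, -0.01 to 0.15 for Bmpr2, -0.45 to 0.87 for Nog, -0.28 to 0.15 for Id1 and -0.11 to 0.33 for Id3. In Sp3-/- against Sp3+/- cells they ran from -0.17 to 1.17 for Bmp2, -1.24 to 0.08 for Bmp4, -0.03 to 0.23 for Bmpr1a and -0.26 to 0.42 for Id1. No count moved in Sp3+/- against Sp3+/+ cells.

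The first title number did not visibly pair libraries: deviations from the genotype means correlated at -0.62 to 0.34 within a number (14 pairs) and -0.52 to 0.71 between numbers (26 pairs). In the block fit Sp3+/+ replicate 1 is alone in its number and drops out of the comparison with Sp3-/-, and in the title suffix fit Sp3+/- replicate 1 has a term of its own. With 1 Sp3+/+ or Sp3+/- library left in a subset, that library is assumed to vary like the others. Sp3-/- replicate 1 and Sp3+/+ replicate 1 decide the values of Bmp4 and Nog, as given with those genes. Levels with a prior count of 0.5 kept all group means within 1 SD.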
